A study of Homo sapiens with 7 samples.

Results

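The genes described here are 8 genes of cholesterol synthesis and its control: HMGCS1, IDI1, FDFT1, SQLE, LSS, DHCR7, INSIG1 and SREBF2. They were taken by gene name from a table of 22670 gene entries per library, of which 20187 lay on chromosomes, and each name had 1 entry. All 8 were above 4 FPKM (fragments per kilobase of transcript, scaled to the size of the library) in all 7 libraries, with levels between 13.5 and 282 FPKM. The libraries came from the human embryonic stem cell (hESC) line SEES-3, which carried a reverse Tet transactivator and a piggyBac transgene driven by a Tet-responsive element, with an IRES-βgeo reporter and puromycin resistance. In JMJD3c-hESCs doxycycline (Dox, 1 µg/ml) switched on JMJD3c, an HA-tagged, nuclear C-terminal region of the H3K27me3 demethylase JMJD3 (KDM6B) with its catalytic domain. This line was sampled before Dox (Day 0) and at Day 1, Day 2, Day 3 and Day 4 of Dox. In JMJD3c mut-hESCs the same construct carried a mutation that inactivates the enzyme, and this line was sampled untreated and after 4 days of Dox. The day of the untreated mutant library is not stated in the labels. Both lines were grown feeder-free in pluripotency medium after stable clones had been selected with puromycin. The comparison of Day 4 with Day 0 asks what induction of the demethylase did, and the mutant line asks which differences also appear with an inactive protein.

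Cells build cholesterol from acetyl-CoA. HMGCS1 makes HMG-CoA early in the route, and IDI1 interconverts the isoprene units that follow. FDFT1 joins farnesyl groups to squalene, SQLE oxidises squalene, LSS closes the ring to lanosterol, and DHCR7 acts late, on 7-dehydrocholesterol. SREBF2 encodes SREBP2, the membrane-bound transcription factor that activates genes of this pathway when sterols are low, and INSIG1 retains SREBP2 and its escort SCAP in the endoplasmic reticulum when sterols are high. SREBP2 binds sterol regulatory elements and acts with the factors NF-Y and Sp1, which bind CCAAT boxes and GC boxes.

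The promoters were searched because the members are grouped as targets of SREBP2. RefSeq promoter windows (taken from GRCh38.p14 and placed on hg19 by exact match) were searched for 6 of the 8 members. These were HMGCS1, IDI1, INSIG1, LSS, DHCR7 and SREBF2. SQLE and FDFT1 were left out of the search, so their promoters are not described. In the 250 bases before each start, on both strands, a sterol regulatory element written TCACNCCAC was present in SREBF2 alone, 133 to 125 bases before its start, and in 0.883% of 35116 promoters in the table. A CCAAT box was present in 6 of 6 members and in 32.0% of all promoters, and a GC box (GGGCGG) in 6 of 6 members and in 42.6% of all promoters. None of the 3 motifs contains another, and a match is a description of the sequence, not evidence of binding. Variant forms of the motifs and bases beyond the 250 were not searched, so a missing match does not show that an element is absent. The 4 stretches printed here are those of the regulator itself and of the 3 enzymes with the highest ratios of Day 4 to Day 0. Each is 150 bases of hg19, read 5′ to 3′ on the strand of its gene, with matches to the 3 motifs, on either strand, in capitals. They are SREBF2 at chr22:42228959-42229108 (plus strand, directly before the start), HMGCS1 at chr5:43313615-43313764 (minus strand, 250 to 101 bases before the start), IDI1 at chr10:1095060-1095209 (minus strand, directly before the RefSeq start and partly within the gene's span in the files) and DHCR7 at chr11:71159482-71159631 (minus strand, 192 to 43 bases before the RefSeq start and within the gene's span in the files).
SREBF2: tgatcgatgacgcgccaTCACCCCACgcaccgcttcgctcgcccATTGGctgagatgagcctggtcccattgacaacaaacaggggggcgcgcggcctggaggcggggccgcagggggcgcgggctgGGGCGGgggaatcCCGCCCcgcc
HMGCS1: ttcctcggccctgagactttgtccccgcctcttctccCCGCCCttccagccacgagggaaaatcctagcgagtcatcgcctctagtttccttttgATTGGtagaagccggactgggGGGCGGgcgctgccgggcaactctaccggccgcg
IDI1: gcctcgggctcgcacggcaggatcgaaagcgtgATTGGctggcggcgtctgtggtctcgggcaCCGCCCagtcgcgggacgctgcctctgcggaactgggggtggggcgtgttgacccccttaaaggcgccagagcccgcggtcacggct
DHCR7: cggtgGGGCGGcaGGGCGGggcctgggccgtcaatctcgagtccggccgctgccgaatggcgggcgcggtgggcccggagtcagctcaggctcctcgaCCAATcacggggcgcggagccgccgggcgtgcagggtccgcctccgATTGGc

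With 1 library per condition, no difference between conditions has a replicate check, and no test was made. The error given in parentheses is the 95% interval that Cufflinks deposited with each value. It covers the estimate within a library and not the variation between cultures. Read depth, estimated from the steps between low FPKM values, ranged from 3540000 to 7300000 reads, with the shallowest library at Day 0, where the intervals were widest. The libraries were checked against their labels. KDM6B, whose reads include those of the transgene, was at 3.45 FPKM at Day 0, between 158 and 282 FPKM from Day 1 to Day 4, and at 2.40 and 454 FPKM in the mutant line without and with Dox. All 8 pluripotency markers examined were above 4 FPKM in all 7 libraries. Of 6 hepatocyte markers none exceeded 4 FPKM in any library, and ALB, TTR and CYP7A1 were at 0 throughout. APOA1 and HNF4A were at 0 at Day 0 and in both mutant libraries, and at 3.37 and 2.74 FPKM at Day 4. AFP did not exceed 0.547 FPKM. The summed level of the 6 was 0 FPKM at Day 0 and 6.36 FPKM at Day 4.

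Both members of the mevalonate arm were higher at each successive day. HMGCS1 (ENSG00000112972, hg19 chr5:43289497-43313614) was at 104 FPKM (94.1 to 115) at Day 0, 121 (111 to 131) at Day 1, 138 (129 to 147) at Day 2, 152 (145 to 162) at Day 3 and 179.9 (169.6 to 193) at Day 4. In the mutant line it was at 157 (148 to 167) without Dox and 157 (147 to 167) with Dox. Day 0 was thus the lowest library and Day 4 the highest, and the Day 4 interval lay above those of Day 0 and of both mutant libraries. IDI1 (ENSG00000067064, chr10:1085848-1095110) was at 30.7 FPKM (23.0 to 38.8) at Day 0, 36.3 (29.4 to 43.2) at Day 1, 36.3 (30.4 to 42.3) at Day 2, 43.1 (37.1 to 49.2) at Day 3 and 56.2 (47.9 to 64.6) at Day 4. It was at 53.7 (47.1 to 60.3) in the untreated mutant line and 54.5 (47.5 to 61.5) in the mutant line with Dox. IDI1 therefore had a Day 4 interval above that of Day 0, while both mutant libraries were as high as Day 4 within their intervals.

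**Figure D1:**
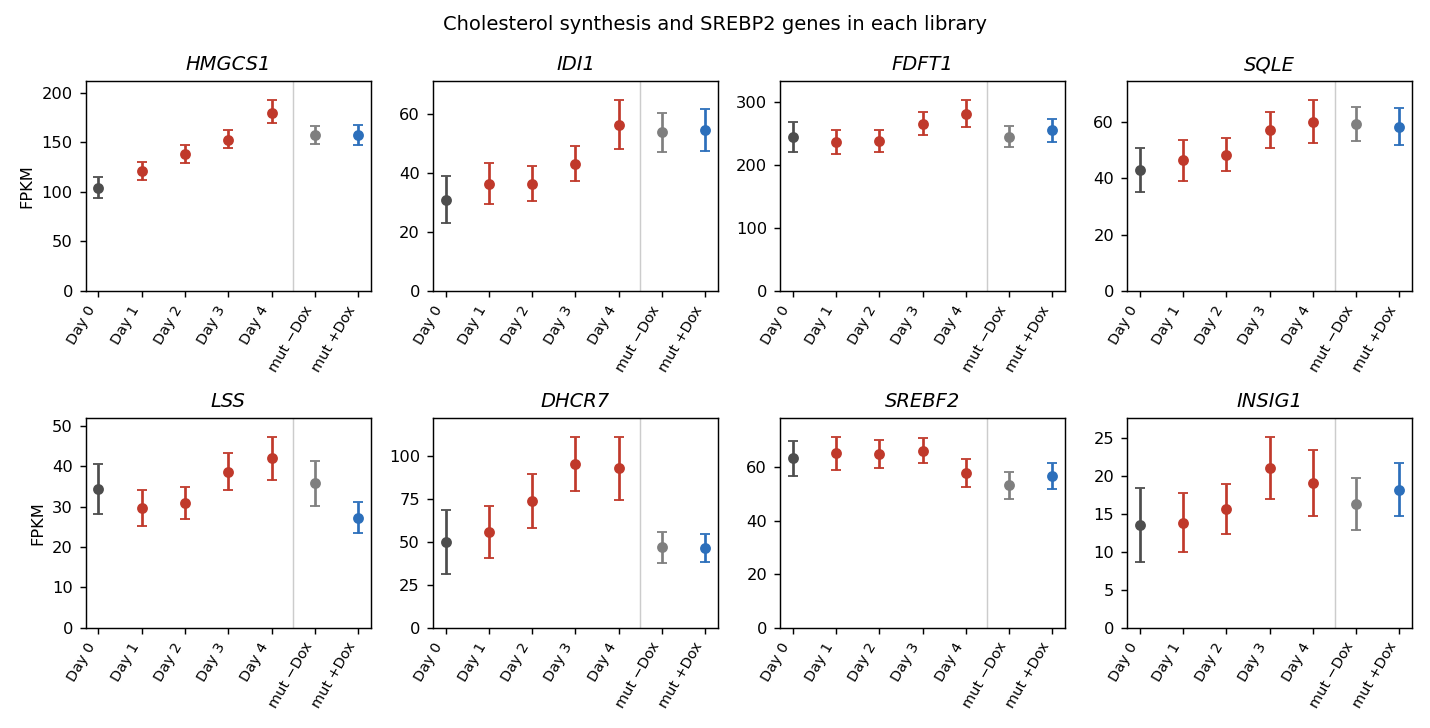
FPKM of each of the 8 genes (vertical axes, each from 0) in the 7 libraries (horizontal axes; mut −Dox and mut +Dox are the untreated and the Dox-treated mutant line), with 1 point per library and bars for the Cufflinks 95% interval. HMGCS1, IDI1 and SQLE were lowest at Day 0 and as high or nearly as high in the mutant line as at Day 4, whereas DHCR7 was at 46.7 and 46.3 FPKM in the mutant libraries and at 95.1 and 92.7 FPKM at Day 3 and Day 4.

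The 3 enzymes that make and close squalene differed less. FDFT1 (ENSG00000079459, chr8:11653082-11696818), squalene synthase, was at 245 FPKM (221 to 269) at Day 0, 237 (218 to 256) at Day 1, 238 (221 to 256) at Day 2, 266 (248 to 284) at Day 3, 282 (261 to 303) at Day 4, 245 (229 to 262) in the untreated mutant line and 255 (237 to 273) in the mutant line with Dox. Its highest value was 1.19 times its lowest, the narrowest range of the group, and the Day 4 interval overlapped those of Day 0 and of both mutant libraries. SQLE (ENSG00000104549, chr8:126010739-126034525), squalene epoxidase, was at 42.9 FPKM (35.1 to 50.9) at Day 0, 46.5 (39.2 to 53.8) at Day 1, 48.3 (42.4 to 54.3) at Day 2, 57.2 (50.7 to 63.6) at Day 3, 60.2 (52.7 to 67.8) at Day 4, 59.4 (53.4 to 65.4) in the untreated mutant line and 58.4 (52.0 to 65.0) in the mutant line with Dox. The Day 4 interval lay above that of Day 0 and overlapped those of the mutant line, the same arrangement as for IDI1. LSS (ENSG00000160285, chr21:47608055-47648738), lanosterol synthase, was at 34.4 FPKM (28.2 to 40.6) at Day 0, 29.6 (25.3 to 34.1) at Day 1, 30.9 (26.8 to 35.0) at Day 2, 38.6 (34.1 to 43.4) at Day 3, 42.0 (36.6 to 47.3) at Day 4, 35.8 (30.2 to 41.4) in the untreated mutant line and 27.3 (23.5 to 31.0) in the mutant line with Dox. LSS was lowest in the Dox-treated mutant line, whose interval lay below that of Day 4 but overlapped that of the untreated mutant line.

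DHCR7 (ENSG00000172893, chr11:71139239-71163914), the 7-dehydrocholesterol reductase, was at 49.6 FPKM (31.1 to 68.4) at Day 0, 55.6 (40.7 to 70.5) at Day 1, 73.8 (58.2 to 89.4) at Day 2, 95.1 (79.5 to 111) at Day 3 and 92.7 (74.3 to 111) at Day 4. In the mutant line it was at 46.7 (37.8 to 55.7) without Dox and 46.3 (37.9 to 54.6) with Dox. Day 3 and Day 4 stood above Day 0, Day 1 and both mutant libraries in level, and the Day 4 interval was clear of those of Day 0 and of the mutant line. DHCR7 had the widest range of the group, with its highest value 2.06 times its lowest, and also the widest intervals, up to 37.6% of the value on either side at Day 0.

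Of the regulators, SREBF2 (ENSG00000198911, chr22:42229109-42303312) was at 63.2 FPKM (56.8 to 69.8) at Day 0, 65.1 (58.9 to 71.3) at Day 1, 64.9 (59.8 to 70.2) at Day 2, 65.9 (61.4 to 70.9) at Day 3, 57.7 (52.6 to 63.0) at Day 4, 53.2 (48.2 to 58.2) in the untreated mutant line and 56.7 (51.8 to 61.7) in the mutant line with Dox. It was the only member lower at Day 4 than at Day 0, with overlapping intervals. An antisense gene, SREBF2-AS1, is annotated across the SREBF2 start, and whether strand was used in counting is not given in the sources used here, so its reads cannot be told apart from those of SREBF2. INSIG1 (ENSG00000186480, chr7:155089486-155101945) was at 13.5 FPKM (8.62 to 18.4) at Day 0, 13.8 (9.91 to 17.7) at Day 1, 15.6 (12.4 to 18.9) at Day 2, 21.0 (16.9 to 25.1) at Day 3, 19.0 (14.7 to 23.4) at Day 4, 16.2 (12.8 to 19.7) in the untreated mutant line and 18.2 (14.6 to 21.7) in the mutant line with Dox. INSIG1 was highest at Day 3, and its intervals overlapped between all pairs of conditions compared.

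FPKM is scaled per length, so levels can be ordered between genes. FDFT1 was the highest, HMGCS1 the next and INSIG1 the lowest of the 8 in all 7 libraries, and at these 3 places the intervals of neighbours in the order were apart in 7 of 7 libraries. SREBF2, DHCR7, SQLE, LSS and IDI1 lay between, and most neighbours among them had overlapping intervals. The place of DHCR7 differed between the lines, from 3rd or 4th in JMJD3c-hESCs to 6th in both libraries of JMJD3c mut-hESCs. Between the untreated libraries its own level was alike, at 49.6 FPKM at Day 0 and 46.7 FPKM in the mutant line, with overlapping intervals. SQLE and IDI1 were below DHCR7 at Day 0 and above it in the untreated mutant line.

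At Day 4 against Day 0, 7 of the 8 members were higher and 1, SREBF2, was lower, where 44.8% of the 10247 genes tested were higher. The ratio of FPKM was 1.87 for DHCR7, 1.83 for IDI1, 1.72 for HMGCS1, 1.41 for INSIG1, 1.40 for SQLE, 1.22 for LSS, 1.15 for FDFT1 and 0.913 for SREBF2. No member passed a 2-fold ratio in either direction, a rule met by 5.87% of the genes tested upwards and 7.56% downwards. At a 1.5-fold ratio, met upwards by 12.9% of the genes, 3 members passed (HMGCS1, IDI1 and DHCR7). The intervals of 4 members (HMGCS1, SQLE, IDI1 and DHCR7) were apart and higher at Day 4, against 5.15% of all genes tested. On the scale of log2(FPKM + 1) the median difference of the members was 0.47 and that of all genes tested was -0.06. The log2 difference was 0.78 for HMGCS1 (0.61 to 0.95 when the Cufflinks intervals of both libraries are combined), 0.85 for IDI1 (0.43 to 1.27) and 0.89 for DHCR7 (0.26 to 1.52).

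In the same libraries markers of other cell types were not constant. Of 10 mesendoderm markers 1 was above 4 FPKM at Day 0 and 10 at Day 4, and their summed level was 5.49 FPKM at Day 0, 334 at Day 4, and 11.7 and 8.33 in the mutant line without and with Dox. The summed level of 6 neuroectoderm markers was 7.22 FPKM at Day 0, between 22.2 and 35.7 from Day 1 to Day 4, and 5.34 and 7.41 in the mutant line. Those of 6 trophoblast and 6 fibroblast markers lay between 2.99 and 6.53 FPKM and between 17.5 and 37.9 FPKM over the 7 libraries. Of the fibroblast markers, COL1A2 lay between 12.5 and 28.4 FPKM and COL1A1 between 4.18 and 11.3 FPKM. COL3A1 and PDGFRB were below 4 FPKM in all 7 libraries, and LUM and DCN were at 0. The summed level of the pluripotency markers was 2357 FPKM at Day 0 and 1672 at Day 4, and 2184 and 1894 in the mutant line without and with Dox. Their part in the differences of the cholesterol genes was not tested, and in bulk RNA a change in the share of cells of a type and a change in RNA per cell cannot be told apart.

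The earlier days showed smaller differences. At Day 1, 6 of 8 members were higher than at Day 0 (45.8% of genes) with a median log2 difference of 0.08 (-0.03 for all genes tested), none passed 2-fold (3.48% of genes upwards), and none had intervals apart (1.45% upwards). At Day 2 the median was 0.18 (-0.05 for all genes), none passed 2-fold (3.9% upwards), and HMGCS1 alone had intervals apart (2.73% upwards). At Day 3 all 8 were higher (48.8% of genes), with a median of 0.44 (-0.01 for all genes). None passed 2-fold (4.73% upwards), 2 members, INSIG1 and DHCR7, passed 1.5-fold (11.9% upwards) and 2, HMGCS1 and DHCR7, had intervals apart (4.45% upwards). HMGCS1, SQLE and IDI1 were higher at every step from Day 0 to Day 4, 3 of 8 members, where 3.32% of 10778 genes were, and no member was lower at every step, as 3.55% of the genes were. Successive steps were mostly within the intervals, and the 4 comparisons share the Day 0 library.

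In the mutant line the members differed little with Dox. At Day 4 of Dox against the untreated library, 4 members were higher (50.9% of genes) and 4 lower, with a median log2 difference of 0.01 for the members and 0.00 for all genes tested. None passed 2-fold (1.25% of genes upwards, 1.53% downwards), none passed 1.5-fold (5.09% and 5.17%), and none had intervals apart (1.47% and 1.68%). HMGCS1 had a log2 difference of -0.00 (-0.13 to 0.12), IDI1 0.02 (-0.23 to 0.27), SQLE -0.02 (-0.24 to 0.19) and DHCR7 -0.01 (-0.39 to 0.36). The member farthest from 0 was LSS, at -0.38 (-0.67 to -0.09), whereas its difference at Day 4 in JMJD3c-hESCs was 0.28 (-0.03 to 0.59), an interval that includes 0.

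**Figure D2:**
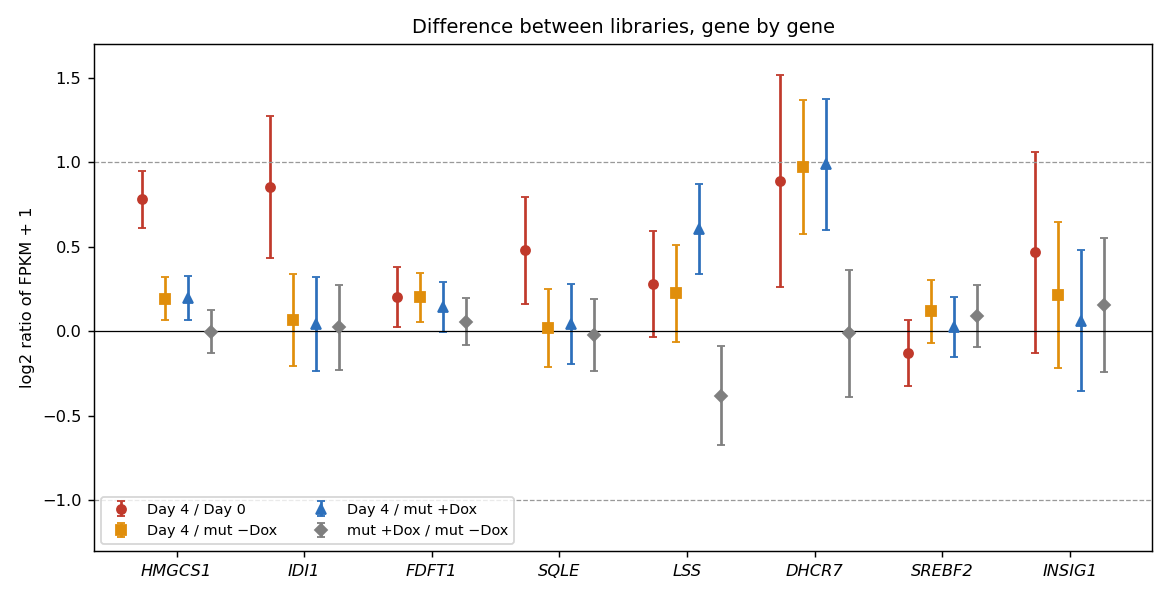
Difference in log2(FPKM + 1) of each gene (vertical axis) in 4 comparisons between libraries, with bars that combine the Cufflinks 95% intervals of both libraries and dashed lines at 1 and -1, close to a 2-fold ratio of FPKM. HMGCS1, IDI1 and SQLE stood at 0.78, 0.85 and 0.48 against Day 0 but at 0.19, 0.07 and 0.02 against the untreated mutant line, while DHCR7 stood between 0.89 and 0.99 against all 3 references.

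The values depended on which untreated library served as the reference. The 2 untreated libraries differed from each other before any Dox: HMGCS1 was 1.51 times, IDI1 1.75 times and SQLE 1.38 times as high in the untreated mutant line as at Day 0, and these 3 members had intervals apart, where 6.79% of 10051 genes did upwards. HMGCS1 and IDI1 passed 1.5-fold (10.7% upwards) and none passed 2-fold (2.78% upwards). Against the untreated mutant line, all 8 members were higher at Day 4 (48.4% of 10045 genes), but the median log2 difference was 0.20 (-0.02 for all genes), none passed 2-fold (7.05% upwards), only DHCR7 passed 1.5-fold (15.2% upwards), and HMGCS1 and DHCR7 had intervals apart (8.65% upwards). The ratio was 1.14 for HMGCS1, 1.05 for IDI1, 1.01 for SQLE and 1.99 for DHCR7. Against the Dox-treated mutant line, all 8 were again higher (48.2% of 9999 genes), with a median of 0.10 (-0.02 for all genes). DHCR7 passed 2-fold with a ratio of 2.00, at the edge of the rule (6.56% upwards), DHCR7 and LSS passed 1.5-fold (14.4% upwards), and HMGCS1, LSS and DHCR7 had intervals apart (7.58% upwards). HMGCS1 and DHCR7 were the 2 members whose Day 4 interval lay above those of Day 0 and both mutant libraries, which held for 2.62% of 10533 genes. Line, clone and library cannot be told apart in the comparisons between lines, and these comparisons share the Day 4 library.

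Base composition moved with the difference between the 2 lines. Between the untreated mutant line and Day 0, the median log2 difference of all genes was lower with higher GC content of their longest transcript, from 0.33 in the bin of lowest GC (median 35.4% GC) to -0.46 in the bin of highest GC (65.5%). Between Day 4 and Day 0 the same 2 bins stood at 0.01 and -0.25. HMGCS1 and IDI1 have the lowest GC content of the group (39.0% and 41.1%), INSIG1, SQLE and FDFT1 lie between 44.8% and 47.0%, and SREBF2, LSS and DHCR7 lie between 57.1% and 58.1%. After the median of genes of like GC was subtracted, the difference of the untreated mutant line from Day 0 was above 0 for all members. It was 0.33 for HMGCS1, 0.59 for IDI1, 0.48 for SQLE, 0.38 for LSS and 0.24 for DHCR7. The other values were 0.16 for INSIG1, 0.07 for SREBF2 and 0.02 for FDFT1. With the same subtraction, Day 4 against the untreated mutant line was 0.41 for HMGCS1, 0.28 for IDI1, 0.05 for SQLE and 0.75 for DHCR7. The difference of DHCR7 from the Dox-treated mutant line became 0.79 and that of LSS 0.41, and Day 4 against Day 0 was 0.78 for HMGCS1 and 1.02 for DHCR7. Between the untreated libraries DHCR7 turned from -0.08 to 0.24 with the subtraction and SREBF2 from -0.25 to 0.07. For Day 4, SREBF2 turned from 0.12 to -0.08 against the untreated mutant line and from 0.03 to -0.14 against the Dox-treated one, and LSS stood at 0.00 against the untreated mutant line, so that the count of 8 higher members does not hold with the subtraction.

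**Figure D3:**
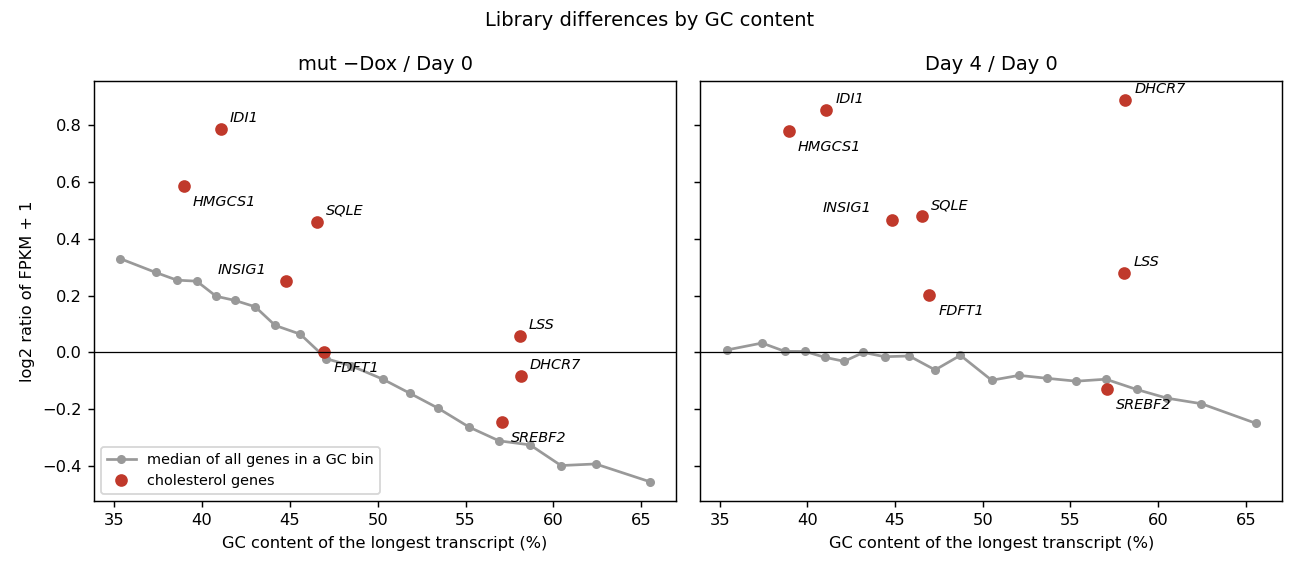
Difference in log2(FPKM + 1) (vertical axis) against GC content of the longest transcript in percent (horizontal axis) for the untreated mutant line against Day 0 and for Day 4 against Day 0, with the median of all genes in each of 20 GC bins as grey points and the 8 cholesterol genes in red. The grey line runs from 0.33 to -0.46 in the first panel and from 0.01 to -0.25 in the second. All 8 genes lie above it in the first panel, FDFT1 and SREBF2 only slightly, and all but SREBF2 lie above it in the second.

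The wider pathway was read from lists of its genes. Of 19 enzymes between acetyl-CoA and cholesterol, 6 of them members, 14 were higher and 5 lower at Day 4 than at Day 0 (44.8% of all genes tested were higher), with a median log2 difference of 0.29. The 6 members were all among the higher ones. Of the 13 enzymes that are not members, 8 were higher and 5 lower, with a median of 0.26 and the intervals of 3 apart upwards. Among all 19, the intervals of 7 were apart upwards (5.15% of all genes) and of none downwards. Besides HMGCS1, IDI1, SQLE and DHCR7 these were ACAT2, MSMO1 and NSDHL, which were named after their values were seen. MSMO1, a sterol C4-methyl oxidase, was the only enzyme past 2-fold, at 37.8 FPKM (28.5 to 47.1) at Day 0, and 79.7 (69.0 to 90.4) at Day 4, with 63.0, 67.5 and 70.7 FPKM on the days between. It was at 62.3 and 67.2 FPKM in the mutant line without and with Dox, so that Day 0 alone was low.

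In the mutant line 7 of the 19 enzymes were higher (50.9% of all genes) and 12 lower with Dox. None passed 2-fold (1.25% upwards, 1.53% downwards) or 1.5-fold, and none had intervals apart. Against the untreated mutant line 15 of the 19 were higher at Day 4 (48.4% of all genes) with a median of 0.20, and against the Dox-treated mutant line 16 (48.2%) with a median of 0.21. Of the 13 that are not members, 9 were higher than in the untreated and 10 than in the Dox-treated mutant line. Against the Dox-treated line MVK, the mevalonate kinase, passed 2-fold beside DHCR7, at 18.7 FPKM (11.5 to 26.0) at Day 4 and 7.85 (3.93 to 11.8) in the mutant line with Dox, with overlapping intervals. The 7 enzymes of the mevalonate arm had a median of 0.53 against Day 0 and 0.19 against the untreated mutant line, and the 9 from lanosterol to cholesterol had 0.29 and 0.28.

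**Figure D4:**
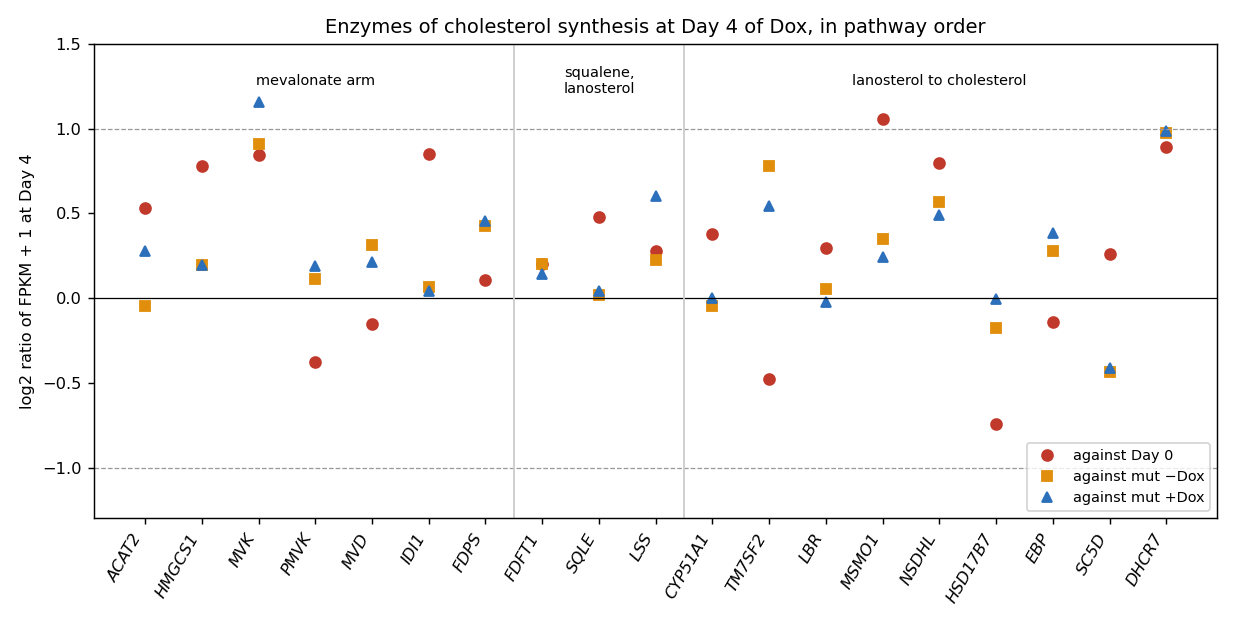
Difference in log2(FPKM + 1) between Day 4 and each of 3 reference libraries (vertical axis) for the 19 enzymes in pathway order (horizontal axis), with 1 symbol per reference and dashed lines at 1 and -1, close to a 2-fold ratio of FPKM. For HMGCS1, IDI1, SQLE and MSMO1 the red points (against Day 0) lie well above those against the mutant line, whereas for DHCR7 the 3 symbols nearly coincide.

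For genes around the pathway the direction depended on the reference library. Of all genes tested, 44.8% were higher at Day 4 than at Day 0. The share was 48.4% against the untreated and 48.2% against the Dox-treated mutant line. Against Day 0, 5.87% of all genes passed 2-fold upwards and 7.56% downwards. Of 7 genes that control SREBP processing, SREBF2 and INSIG1 among them, 2 were higher and 5 lower at Day 4 than at Day 0, with a median log2 difference of -0.13 (-0.03 after the GC subtraction) and none past 2-fold. Against each of the mutant libraries 4 were higher and 3 lower, with medians of 0.12 without and 0.03 with Dox. Of 7 genes of sterol uptake and transport 3 were higher and 4 lower, with a median of -0.27, and SCARB1 alone passed 2-fold. Their median was 0.12 against the untreated mutant line, with 5 higher, and 0.31 against the Dox-treated one, with 6 higher. SCARB1, a receptor for high-density lipoprotein, was lower, at 24.8 FPKM (18.0 to 31.6) at Day 0 and 12.0 (7.92 to 16.2) at Day 4, but it was also at 20.4 and 11.8 FPKM in the mutant line without and with Dox. Of 9 genes of the isoprenoid branch 8 were higher than at Day 0 with a median of 0.09 and none past 2-fold, but 4 were higher than in the untreated mutant line (median -0.17) and 2 than in the Dox-treated one (median -0.19).

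The levels of the members followed each other only in part. Over the 7 libraries, the correlation (Pearson's r of log2 values) of the 28 pairs of members ranged from -0.79 for IDI1 and SREBF2 to 0.96 for SQLE and IDI1, with a median of 0.53. It was above 0.7 in 6 pairs, among them HMGCS1 with SQLE (0.95) and HMGCS1 with IDI1 (0.93), and below 0 in 6. These points share libraries and their depth and base composition, and no p-value is given. The genes outside all lists whose profile was most like the mean profile of the members, of 8285 genes compared, were SSR3 (r = 0.99), MAPRE2 (0.98), CALD1 (0.97), CLIC1 (0.97) and VEZF1 (0.95). SSR3, for example, was at 81.1 FPKM at Day 0, 124 at Day 4, and 98.0 and 103 in the mutant line without and with Dox.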

How the data were processed

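Poly(A) RNA from 7 cultures, 1 per condition, was made into directional libraries and sequenced single-end on a MiSeq. Per the submitters' processing notes, CASAVA 1.4, TopHat2 2.0.13, Cufflinks 2.1.1 and hg19 were used, and the authors deposited an FPKM value with a 95% interval for each of 22670 entries per library. Counts were not used here. All entries above 4 FPKM in either library, on chromosomes or not, were compared as log2(FPKM + 1). The pseudocount of 1 FPKM understates differences of low genes. Only chromosome entries entered the GC bins. A gene was called at a ratio above 2 or below 0.5, and intervals that did not overlap were counted separately. With 1 library per condition no test was made and no p-value is given. GC content was taken from the longest transcript of GENCODE 44 (19507 of 20187 entries matched, 96.6%, and all 8 members), and the median difference of each of 20 GC bins was subtracted as an alternative chosen after seeing the data. Read depth was estimated from 63 single-exon genes. Analyses used Python 3.11.15, numpy 2.4.6 and pandas 2.3.3. The members and gene lists were chosen with earlier results of these data known. Named genes were the members, list genes past 2-fold at Day 4 or in the mutant line, KDM6B and the 5 most similar profiles. ACAT2, NSDHL, ABCG1 and single hepatocyte and fibroblast markers were named after their values were seen. Some genes of the lists are not reported here and were left out of the counts.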

Additional observations from a re-analysis of the deposited data

Results flagged for a closer look

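For 5 of the 8 cholesterol genes the difference at Day 4 had opposite directions in JMJD3c-hESCs and JMJD3c mut-hESCs, each line against its own untreated library. Of all genes tested, 44.8% were higher in the first comparison and 50.9% in the second. The share of all genes with opposite directions was not counted, so the count of 5 is not a result about these genes. The log2 difference was 0.78 and -0.0024 for HMGCS1, 0.48 and -0.024 for SQLE, 0.28 and -0.38 for LSS, 0.89 and -0.013 for DHCR7, and -0.13 and 0.091 for SREBF2, in the order of the lines. With 1 library on each side, the difference between the lines was not tested for any of them. The combined intervals of HMGCS1, SQLE, DHCR7 and SREBF2 include 0 in the mutant line, and those of LSS and SREBF2 include 0 in JMJD3c-hESCs, so that for each of the 5 genes the sign is unsettled in at least 1 line. For HMGCS1 and SQLE the untreated mutant library was already 1.51 and 1.38 times as high as Day 0, whereas for DHCR7 it was 0.942 times.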

How the results depend on the processing

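Pseudocounts of 0.1 and 4 moved none of the 64 member values by more than its combined interval, and neither did scaling by the median of ratios or the upper quartile. The scalings moved the median of all genes by less than 0.1. Summing the entries of a name could change nothing, because each member had 1 entry. Subtracting GC bins moved 5 of the 64. Taking the untreated mutant line in place of Day 0 moved 16 of 32. No member was called against Day 0, so this setting could not reverse a call. The median of the members turned from 0.08 to -0.24 at Day 1 and from 0.18 to -0.12 at Day 2. Over the settings other than that reference, the median of the members ranged from 0.43 to 0.55 for Day 4 against Day 0 and from 0.098 to 0.22 for Day 4 against the Dox-treated mutant line. With the untreated mutant line as reference the Day 3 median was 0.11 in place of 0.44 and 1 member, DHCR7, passed 2-fold in place of 0. An FPKM cutoff of 1 or none could not change a count of members, because their lowest value in any library was 13.5 FPKM. At 1.5-fold in place of 2-fold, 3 members passed at Day 4 against Day 0, 2 at Day 3, 1 against the untreated mutant line, 2 against the Dox-treated mutant line and 2 between the untreated libraries. Either scaling placed 1 member, DHCR7, past 2-fold at Day 4 against the untreated mutant line. Subtracting GC bins gave 1 member past 2-fold, DHCR7, at Day 4 against Day 0 and 0 against the Dox-treated mutant line, so that the 2-fold call of DHCR7 depends on the setting at a ratio near 2. No paired analysis was possible because each condition has 1 library and no replicate numbers are shared, and no replicate could be left out for the same reason. The intervals of INSIG1 and DHCR7 were the widest of the members and at Day 0 reach 36.1% and 37.6% of the value on either side, and what sets their width was not tested.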

Other observations

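Among genes next to the pathway, those of sterol efflux and esterification and of fatty acid synthesis held further 2-fold ratios at Day 4. Upwards against Day 0 these were 2 of 9 and 1 of 10 genes, where 5.87% of all genes tested passed. SOAT1, which esterifies cholesterol for storage, was at 1.37 FPKM (0 to 4.16) at Day 0, 3.28, 3.02 and 3.95 on the following days and 6.44 (3.46 to 9.46) at Day 4, and at 2.60 and 1.98 FPKM in the mutant line without and with Dox. It was highest at Day 4, with intervals that overlap at these low levels. ABCA1, which exports cholesterol, was at 3.38 FPKM (2.18 to 5.79) at Day 0, 3.93, 6.40 and 5.25 on the following days and 7.41 (5.66 to 9.49) at Day 4, and at 4.02 and 3.97 FPKM in the mutant line. SOAT1 and ABCA1 exceeded 4 FPKM at Day 4 and not at Day 0. The Day 4 interval of ABCA1 lay above both of the mutant line and overlapped that of Day 0. CYP27A1, a sterol 27-hydroxylase, was at 3.81 FPKM at Day 0, between 5.16 and 5.65 FPKM from Day 1 to Day 4, and at 2.29 and 1.65 FPKM in the mutant line, with a ratio of 3.34 between Day 4 and the Dox-treated mutant line and overlapping intervals. ABCG1, another sterol exporter of this list, was named after its values were seen. In JMJD3c-hESCs it was lower in the later libraries, at 3.24, 2.61, 1.48, 0.718 and 0.754 FPKM from Day 0 to Day 4. In the mutant line it was at 1.503 FPKM without Dox and 1.375 FPKM with Dox. It did not reach 4 FPKM in any library.

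ME1, a malic enzyme that supplies NADPH for lipid synthesis, was past 2-fold with Dox in both lines, with a ratio of 2.92 in JMJD3c-hESCs and of 2.00, at the edge of the rule, in the mutant line. It was at 2.93 FPKM (0.977 to 4.95) at Day 0, 6.41, 5.21 and 6.65 on the following days and 8.56 (5.87 to 11.2) at Day 4, and at 3.92 (2.42 to 5.44) and 7.85 (5.48 to 10.2) FPKM in the mutant line without and with Dox. The intervals of the untreated and the Day 4 library were apart in each line, so the difference in ME1 was present with the catalytically inactive protein as well. In the mutant line ME1 was the only one of the 10 fatty acid synthesis genes past 2-fold (1.25% of all genes upwards). At Day 4 against Day 0 those 10 had a median log2 difference of 0.17.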
